A study of Gallus gallus with 14 samples.

Results

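The MSTRG.14719 locus on chromosome 3 held 3 long non-coding RNA (lncRNA) transcripts, MSTRG.14719.4, MSTRG.14719.5 and MSTRG.14719.6, out of 9977 lncRNA transcripts measured in the uterovaginal junction (UVJ) of egg-laying hens. The members were every transcript of this locus in the deposited lncRNA table, which the authors had filtered, so that the locus total below is the sum over these 3. The locus was chosen by the long-DF against short-DF difference of MSTRG.14719.6 in these same libraries, so the values of that contrast are given as a description only. Duration of fertility (DF) is how long a hen goes on laying fertile eggs after a single insemination. From hens of 1 farm kept under the same light and feed, 7 hens with long DF and 7 hens with short DF were taken, and 1 RNA library was made from the UVJ of each hen, with no pooling. Both groups are extremes of the trait among those hens, and every hen had been artificially inseminated. The labels give each hen a number with the prefix JH or JF. The long-DF hens were JH14, JH25, JH95, JH104, JF25, JF61 and JF64, and the short-DF hens were JH49, JH68, JH109, JH130, JF21, JF40 and JF56, so that each group held 4 JH and 3 JF hens. The group of each hen was taken from its title. The source name of JH14 names neither fertility level, whereas that of every other hen names high or low fertility, as its title does. The sources used here do not say what the prefix stands for. The UVJ itself could not be checked by its markers, since the table holds lncRNAs only.

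The UVJ is the narrow band of the oviduct whose sperm storage tubules keep spermatozoa alive between insemination and ovulation. LncRNAs are transcripts longer than a set minimum without an evident open reading frame, and many are spliced. Transcripts of 1 locus often share their last exon and differ in the first, because transcription started at different promoters. A natural antisense lncRNA lies on the strand opposite to another transcript and overlaps it.

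All 3 transcripts were annotated on the minus strand and had 2 exons each. On the Galgal4 build, MSTRG.14719.4 lay at chr3:13541726-13546301 with a length of 3620 nt, MSTRG.14719.5 at chr3:13541735-13566048 with 3502 nt, and MSTRG.14719.6 at chr3:13541751-13587712 with 3328 nt. Together they spanned 45.987 kb. The last exon was nearly the same in each, and the stretch from 13541751 to 13545007, 3257 nt long, was in every member. That stretch made up 90.0% of MSTRG.14719.4, 93.0% of MSTRG.14719.5 and 97.9% of MSTRG.14719.6. The transcripts differed in the first exon, which was 338 nt long in MSTRG.14719.4, 229 nt in MSTRG.14719.5 and 71 nt in MSTRG.14719.6. The first exons stood ever farther upstream, behind introns of 956 nt, 20812 nt and 42634 nt. Hence the fragments that could set MSTRG.14719.6 apart from the other members were those that touched its 71 nt first exon or its splice junction.

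**Figure D1:**
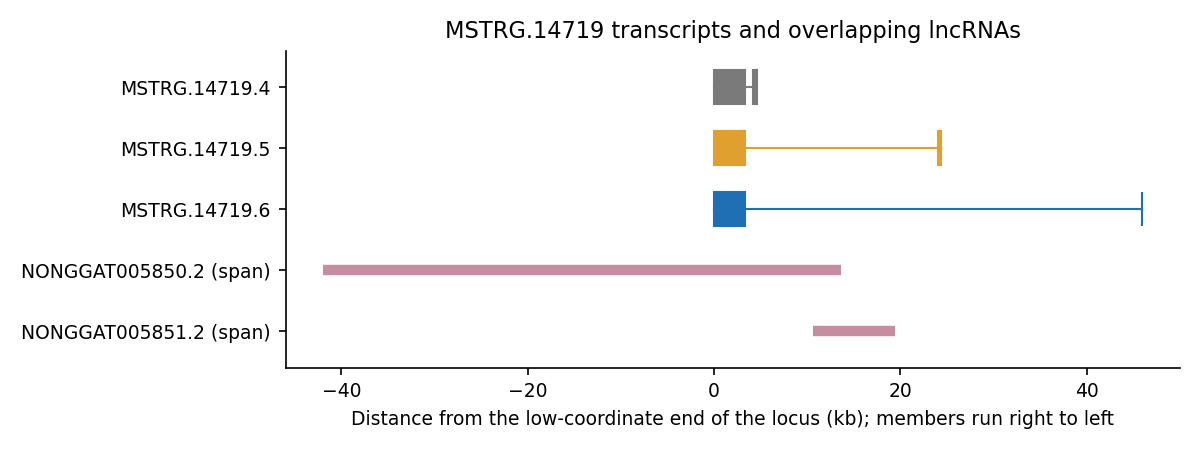
Exons (boxes) and introns (lines) of the 3 transcripts, and the spans of the 2 known lncRNAs that overlap them, by distance in kb from the low-coordinate end of the locus. The members share the last exon at 0 to about 3 kb and differ in the first exon, which in MSTRG.14719.6 lies beyond an intron of 42634 nt.

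In the authors' comparison with known transcripts, all 3 members were set against the known lncRNA NONGGAT005850.2, whose span, chr3:13499750-13555318, takes in the shared last exon. MSTRG.14719.5 and MSTRG.14719.6 had class code x, which stands for exon overlap on the opposite strand, and MSTRG.14719.4 had class code i, which stands for a transcript inside an intron of the reference. A second known lncRNA, NONGGAT005851.2 at chr3:13552360-13561196, lay within the introns of MSTRG.14719.5 and MSTRG.14719.6. These codes do not go together by position, since the exons of MSTRG.14719.5 and MSTRG.14719.6 inside that span lie within the last exon of MSTRG.14719.4, which code i places in an intron. The exons of the known lncRNAs were not analysed here, so whether any overlaps an exon of a member is unknown, and it is not stated whether fragments were counted by strand.

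Libraries held between 213304 and 266624 lncRNA fragments in long-DF hens and between 213896 and 281892 in short-DF hens. No pair among the 91 pairs of libraries agreed within sampling noise. The locus took 1922 fragments over the 14 hens, of which 79.2% were counted on MSTRG.14719.4, 5.67% on MSTRG.14719.5 and 15.1% on MSTRG.14719.6. Levels are given in FPKM, the count divided by the length of the transcript and by the size of the library. The summed FPKM of the locus averaged 5.53, higher than 85.8% of the 6887 lncRNAs that had 0.1 FPKM or more in 7 or more hens. Of the members, 1 of 3 passed that filter, namely MSTRG.14719.4 in 14 hens. MSTRG.14719.5 and MSTRG.14719.6 each reached that level in 3 hens.

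MSTRG.14719.6 was counted in a few hens at a high level and in the others at 0 or 1 fragment. In the long-DF hens it had 112 fragments in JH14, 122 in JH95 and 1 in JF25, and 0 in JH25, JH104, JF61 and JF64. In the short-DF hens it had 55 fragments in JH68 and 1 in JF56, and 0 in JH49, JH109, JH130, JF21 and JF40. So the hens with more than 3 fragments were JH14 and JH95 in the long-DF group and JH68 in the short-DF group, and all others of both groups overlapped at 0 or 1.

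MSTRG.14719.4, the member with the shortest intron, was counted in every hen. It had 115, 142, 3, 136, 95, 98 and 130 fragments in the long-DF hens, in the order listed in the opening. In the short-DF hens it had 145, 58, 88, 90, 109, 132 and 181 fragments. The lowest counts of the series were thus those of JH95 in the long-DF group and JH68 in the short-DF group, while JH14 stood among the other hens.

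MSTRG.14719.5, whose first exon lies between those of the other members, had 92 fragments in the short-DF hen JH68. In every other hen it had between 0 and 3 fragments, in both groups. JH68 was therefore the hen in which all 3 transcripts were counted at more than 3 fragments.

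The locus as a whole was less uneven over the hens than MSTRG.14719.5 and MSTRG.14719.6. Its summed counts were 228, 145, 125, 137, 97, 99 and 131 fragments in the long-DF hens. They were 145, 205, 90, 91, 110, 135 and 184 fragments in the short-DF hens. JH14 was highest and JH68 next, both hens with MSTRG.14719.6, while JH95 stood among the other hens. JH109 was lowest in fragments, and the ranges of the groups overlapped nearly throughout. In FPKM, JF61 at 3.16 and JF25 at 3.36 lay below JH109 at 3.92. The coefficient of variation of the FPKM over the hens was 36.3% for the locus total, 42.1% for MSTRG.14719.4, 308% for MSTRG.14719.5 and 212% for MSTRG.14719.6. The median over the 6887 lncRNAs was 55.4%, so that the total varied less than the middle lncRNA. The total is a sum over transcripts, with a mean above that of 85.8% of those lncRNAs. It was not set against lncRNAs of like level. MSTRG.14719.5 and MSTRG.14719.6 did not pass the filter behind that median, which keeps out lncRNAs counted in few hens, and are not set against it.

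**Figure D2:**
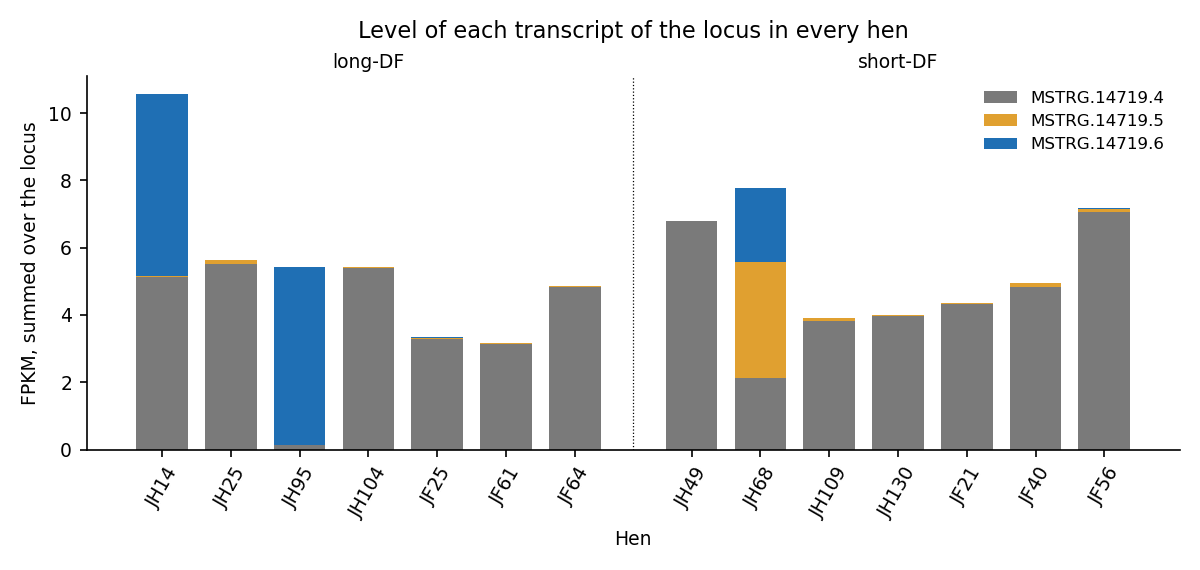
FPKM of each transcript, stacked, in each hen, with long-DF hens left of the dotted line and short-DF hens right of it. MSTRG.14719.6 is visible in JH14, JH95 and JH68, where the locus total was 10.6, 5.42 and 7.77 FPKM, against 3.16 to 7.18 FPKM in the other hens.

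As a share of the fragments of the locus, MSTRG.14719.6 reached 49.1% in JH14 (Wilson 95% interval 42.7% to 55.6%) and 97.6% in JH95 (93.2% to 99.2%) among the long-DF hens. In the short-DF hen JH68 its share was 26.8% (21.2% to 33.3%). The intervals of these hens did not overlap each other, and those of the other 11 hens ended well below them. In the 9 hens at 0 fragments, the Wilson interval ended between 2.58% and 4.09%, depending on the hen. There 3 fragments, the limit taken for a count of 0, would be 2.07% to 3.33% of the locus. Both values take every fragment of the locus as able to show MSTRG.14719.6. Only those touching its first exon or splice junction could, so these values do not bound its true share in those hens. Intervals and limits take each fragment as assigned and cover only the counting error of assigned fragments. They leave out error in the assignment, although 97.9% of MSTRG.14719.6 lies in every member. The gaps between the intervals of JH14, JH95 and JH68 hold under that limit. The reads also carry no molecular identifiers, and PCR copies were counted like other fragments.

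The remainder was divided differently in those hens. In JH14, MSTRG.14719.4 held 50.4% of the locus and MSTRG.14719.5 held 0.439%. In JH95, MSTRG.14719.4 held 2.40%, which is 3 fragments, and MSTRG.14719.5 had 0 fragments. In JH68, MSTRG.14719.4 held 28.3% and MSTRG.14719.5 held 44.9%. In the other 11 hens MSTRG.14719.4 held between 97.8% and 100% of the locus. Across the 14 hens, the FPKM of MSTRG.14719.4 and MSTRG.14719.6 had a Pearson r of -0.49, and that of MSTRG.14719.6 and the locus total an r of 0.62, as a description of values that share their library and most of their sequence. In the 9 hens with 0 fragments on MSTRG.14719.6, MSTRG.14719.4 had 88 to 145, so the fragments of the shared exon were not counted once for every transcript that holds it. How they were assigned is not stated, and its part in the levels of the single transcripts was not tested.

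The question of the study was whether lncRNAs of the UVJ differ between long-DF and short-DF hens. MSTRG.14719.6 averaged 1.54 ± 2.61 FPKM in long-DF hens and 0.318 ± 0.822 FPKM in short-DF hens (SD, n = 7 each), with a median of 0 in both groups. Its fitted log2 fold change was 2.21 with a standard error of 1.61. That value was 6.80 (standard error 2.06) without JH68, 1.54 without JH14 and 1.35 without JH95. MSTRG.14719.5 averaged 0.0449 ± 0.0364 FPKM in long-DF hens and 0.549 ± 1.29 FPKM in short-DF hens. Its fitted log2 fold change of -3.41 (standard error 1.16) was -0.46 without JH68. DESeq2 gave -0.38 (standard error 0.84) at its default settings, which replace outlying counts where a group holds 7 or more samples. Whether the count of JH68 was replaced was not looked at, so that value may in effect leave JH68 out. MSTRG.14719.4 averaged 3.91 ± 1.93 FPKM in long-DF hens and 4.70 ± 1.74 FPKM in short-DF hens, with a log2 fold change of -0.24 (standard error 0.48) that was -0.02 without JH95 and -0.09 without JF56. The locus total averaged 5.49 ± 2.46 FPKM in long-DF hens and 5.57 ± 1.63 FPKM in short-DF hens, with a log2 fold change of -0.03 (standard error 0.22). The difference of 1.22 FPKM in MSTRG.14719.6 was thus smaller than its SD among long-DF hens, and it was 0.572 FPKM without JH14, 0.592 FPKM without JH95 and 1.53 FPKM without JH68, while the locus total differed by less than the SD of either group. In bulk tissue, fewer cells of a type and less RNA per cell cannot be told apart.

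The contrast is also given within each prefix, again as a description, and whether it differs between the prefixes was not tested. Among JH hens, MSTRG.14719.6 averaged 2.68 ± 3.10 FPKM in long-DF hens and 0.546 ± 1.09 FPKM in short-DF hens (SD, n = 4 each). Among JF hens it averaged 0.0125 ± 0.0217 FPKM in long-DF hens and 0.0141 ± 0.0245 FPKM in short-DF hens (SD, n = 3 each). No JF hen had more than 1 fragment of it, so little contrast could appear there. The locus total averaged 6.76 ± 2.55 FPKM in long-DF JH hens and 5.62 ± 1.96 FPKM in short-DF JH hens. In JF hens it averaged 3.79 ± 0.929 FPKM in long-DF hens and 5.49 ± 1.49 FPKM in short-DF hens. The long-DF minus short-DF difference of the total was thus 1.14 FPKM in JH hens, within the SD of either group, and -1.70 FPKM in JF hens, larger than the SD of either group. The JF groups still overlapped, since the long-DF hen JF64 at 4.86 FPKM lay above the short-DF hen JF21 at 4.35 FPKM. Over all lncRNAs, 0 of 6887 met the study's criteria between long-DF and short-DF hens in edgeR's quasi-likelihood test, fitted without the prefix. An unadjusted p under 0.05 was reached by 146, a smaller share than that limit would give by chance. DESeq2, also without the prefix, called 2, or 6 without the FPKM filter. With the prefix as a covariate, the edgeR test called 0, and 192 had an unadjusted p under 0.05. The study also used edgeR and reported differing lncRNAs, with MSTRG.14719.6 among those higher in long-DF hens. It does not name the test within edgeR, so its result and the count here are not like for like.

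The prefix was not used to choose the locus, and JH hens were compared with JF hens with the DF group as a covariate. A lncRNA was called where the adjusted p did not exceed 0.05, the unadjusted p did not exceed 0.01 and the log2 fold change was 2 or more in size, which are the study's criteria. The locus total averaged 6.19 ± 2.19 FPKM in JH hens (SD, n = 8) and 4.64 ± 1.45 FPKM in JF hens (SD, n = 6). Its log2 fold change was 0.25 with a standard error of 0.21, and it did not pass (edgeR quasi-likelihood test, Benjamini-Hochberg adjusted p = 0.605). MSTRG.14719.4 averaged 4.10 ± 2.13 FPKM in JH hens and 4.57 ± 1.42 FPKM in JF hens, and its log2 fold change of -0.27 (standard error 0.49) did not pass either (edgeR adjusted p = 0.859). It was -0.09 without JH95, -0.11 without JF56, -0.14 without JH68 and -0.41 without JH104. Among all lncRNAs past the FPKM filter, 2.76% were called between the prefixes.

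MSTRG.14719.6 and MSTRG.14719.5 were tested without the filter, where 2.05% of 9868 lncRNAs were called. MSTRG.14719.6 had 289 fragments in JH hens, all in JH14, JH95 and JH68, and 2 fragments in JF hens. The ratio of its rates per lncRNA fragment was 112, with an exact 95% counting interval from 30.9 to 933. That interval leaves out the spread between hens and error in the assignment of fragments. Its fitted log2 fold change was 6.19 with a standard error of 1.90, and it did not pass (edgeR adjusted p = 0.0914), with adjusted p-values from 0.0613 to 0.389 over the alternatives. A median of 0 fragments in both JH and JF hens shows how few hens carried the difference. MSTRG.14719.5 had 100 fragments in JH hens, 92 of them in JH68, and 9 in JF hens, and its log2 fold change of 2.39 (standard error 1.22) did not pass (edgeR adjusted p = 0.356). Without JH68 that fold change turned to -0.22. None of the 3 members was called.

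Shares of the locus were compared by exact permutation over all 3003 splits of the hens. The share of summed FPKM held by MSTRG.14719.6 averaged 22.1% ± 36.0 in JH hens (SD, n = 8) and 0.285% ± 0.472 in JF hens (SD, n = 6; exact two-sided permutation p = 0.308). MSTRG.14719.4 held 71.4% ± 39.7 in JH hens and 98.5% ± 0.659 in JF hens (exact two-sided permutation p = 0.206). MSTRG.14719.5 held 6.43% ± 15.5 in JH hens and 1.21% ± 0.545 in JF hens (exact two-sided permutation p = 0.800). The 3 shares add up to the whole and are not independent. The share of MSTRG.14719.6 differed by 21.9 percentage points, and by 11.0 without JH95, and it was 0 in 5 of 8 JH hens and in 4 of 6 JF hens.

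Within the DF groups 35 splits are possible. The two-sided p was taken as the smaller one-sided p times 2, so the smallest p is 0.0571 and no comparison could pass 0.05 by this test. The locus total was 10.6, 5.62, 5.42 and 5.43 FPKM in the long-DF JH hens JH14, JH25, JH95 and JH104. It was 3.36, 3.16 and 4.86 FPKM in the long-DF JF hens JF25, JF61 and JF64. Every long-DF JH hen was above every long-DF JF hen, which gave that smallest value (exact two-sided permutation p = 0.0571). That separation held in FPKM only, since JF64 with 131 fragments lay above JH95 with 125, and relative to the lncRNA fragments of the library, the basis of the edgeR test, JF64 lay above both JH25 and JH95. In the short-DF hens the total was 6.79, 7.77, 3.92 and 4.01 FPKM in JH49, JH68, JH109 and JH130. It was 4.35, 4.95 and 7.18 FPKM in JF21, JF40 and JF56, within the range of the JH hens (exact two-sided permutation p = 0.971). Whether the prefix difference itself differs between the DF groups was not tested.

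**Figure D3:**
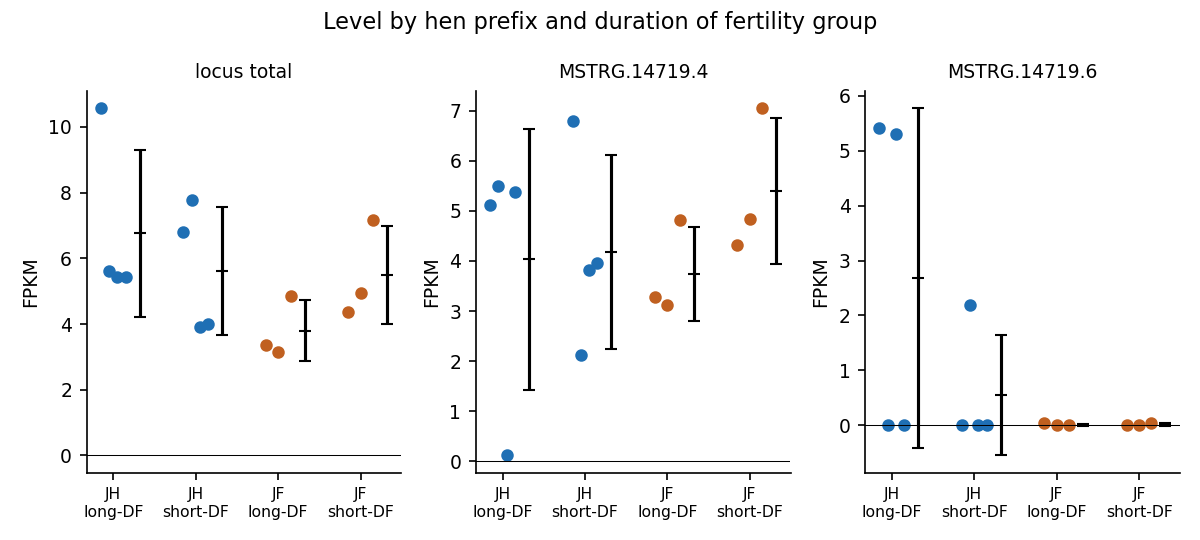
FPKM of the locus total, MSTRG.14719.4 and MSTRG.14719.6 by prefix and DF group, with 1 point per hen and the mean with its SD beside the points (n = 4 for JH and 3 for JF in each DF group). The long-DF JH hens lie above the long-DF JF hens in the total in FPKM, and MSTRG.14719.6 lies near 0 in all but JH14, JH95 and JH68.

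Of the known lncRNAs within 100 kb, the one whose pattern was most like that of MSTRG.14719.6 was the overlapping NONGGAT005850.2. It had 11, 2, 7, 0, 1, 1 and 1 fragments in the long-DF hens and 1, 10, 1, 0, 0, 1 and 1 in the short-DF hens, in the order of the opening. Its highest counts were thus in JH14, JH95 and JH68, the hens with MSTRG.14719.6, though at far fewer fragments. Over the 14 hens its log2(FPKM + 0.1) had a Pearson r of 0.91 with that of MSTRG.14719.6. That was the highest of the 6886 lncRNAs compared, all outside the locus and with 0.1 FPKM or more in 7 or more hens. The Spearman rho was 0.64. Between JH and JF hens its log2 fold change of 2.15 (standard error 0.86) did not pass (edgeR adjusted p = 0.174).

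NONGGAT005851.2, inside the introns of MSTRG.14719.5 and MSTRG.14719.6, had between 1 and 3 fragments in long-DF hens and between 0 and 4 in short-DF hens, with the 4 in JH68. Its r with MSTRG.14719.6 was 0.37. NONGGAT005848.2, 13402 nt from the locus on the low-coordinate side, was at 0 in JH14, JH95 and JH68 but also in 6 other hens, and was highest in JH25 with 18 fragments. NONGGAT005847.2, NONGGAT014910.1 and NONGGAT014911.1, the last being the nearest on the high side at 215797 nt, had at most 2 fragments in any hen.

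NONGGAT005849.2, 33864 nt from the locus on the low-coordinate side, was lower in JH hens. It had 2, 1, 0, 0, 0, 0, 3 and 4 fragments in the JH hens, and 0, 13, 6, 7, 18 and 8 in the JF hens. Its log2 fold change was -2.59 with a standard error of 0.72 (edgeR adjusted p = 0.0448), and it was the neighbour that was called. The call was lost in 16 of 21 alternatives, with adjusted p-values from 0.0175 to 0.108. The span of NONGGAT005849.2, chr3:13499750-13507862, lay inside that of NONGGAT005850.2, and how fragments were divided between them was not tested.

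The lncRNAs most and least like MSTRG.14719.6 were ranked by Pearson r among the 6886 past the FPKM filter. That filter shut out any lncRNA seen in as few hens as MSTRG.14719.6 itself. By Pearson r over the 14 hens, the next after NONGGAT005850.2 were NONGGAT006149.2 on chromosome 3 (0.88), MSTRG.28904.2 on an unplaced sequence (0.85), NONGGAT005313.2 on chromosome 25 (0.78) and MSTRG.16699.1 on chromosome 3 (0.75). NONGGAT006149.2, only 299 nt long, had 1.08 FPKM in JH14, 0.968 in JH95, 0.884 in JH68 and 0.772 in JF61. In the other hens it had 0.418 to 0.567 FPKM. At that length these values stand for very few fragments, and its Spearman rho was 0.44. MSTRG.28904.2 had 11.2 FPKM in JH14, 9.45 in JH95 and 14.8 in JH68, against 2.44 to 5.78 FPKM in the other hens. The lowest r values were those of MSTRG.30430.3 on chromosome Z (-0.97), MSTRG.23044.1 on chromosome 9 (-0.85) and MSTRG.19119.1 on chromosome 5 (-0.81). These correlations rest on the few hens with MSTRG.14719.6 and on values that share a library. The lowest and highest of 6886 coefficients are extreme by selection.

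MSTRG.30430.3, at chrZ:63729175-63731798, was at 0 FPKM in JH14 and JH95 and at 0.123 FPKM in JH68, and between 1.69 and 5.25 FPKM in the other hens. The other transcripts of its locus were then looked at, a choice made after these values were seen. MSTRG.30430.2 had 24 fragments in JH14, 17 in JH95 and 13 in JH68, and 0 in the other 11 hens. Seen in so few hens, it did not pass the FPKM filter and was not among the lncRNAs ranked. The MSTRG.30430 total was 57, 49 and 42 fragments in those hens, against 43 to 90 in the others. This locus was picked for the low r of MSTRG.30430.3 with MSTRG.14719.6, so the low level of MSTRG.30430.3 in the same hens was fixed by the choice. The counts of MSTRG.30430.2 did not enter that choice, but were looked at only because of it. Both are a description only.

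**Figure D4:**
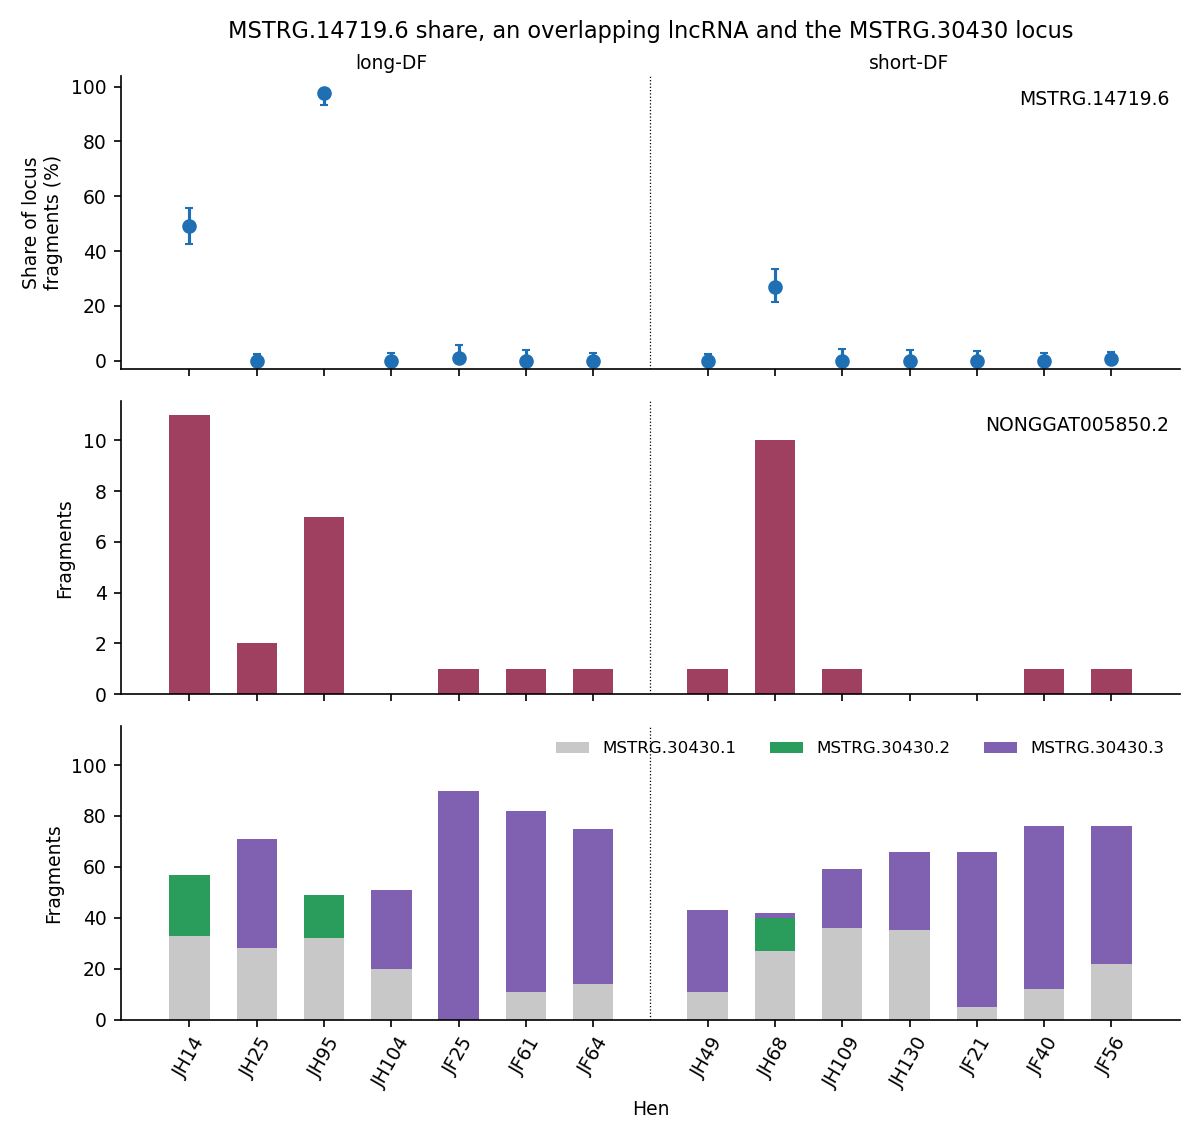
From top to bottom, the share of locus fragments on MSTRG.14719.6 in percent with Wilson 95% intervals, the fragments on NONGGAT005850.2, and the fragments on the 3 MSTRG.30430 transcripts, in each hen (long-DF left, short-DF right of the dotted line). JH14, JH95 and JH68 stand out in all 3 panels, the last by MSTRG.30430.2 with 24, 17 and 13 fragments.

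The locus total had other companions than MSTRG.14719.6. Among lncRNAs past the FPKM filter, the total was most like NONGGAT003936.2 on chromosome 2 (r = 0.86), NONGGAT007640.2 on chromosome 5 (0.84) and NONGGAT005746.2 on chromosome 3 (0.84). Next came NONGGAT004314.2 on chromosome 2 (0.83) and NONGGAT000435.2 on chromosome 1 (0.81). It was least like MSTRG.27803.1 on an unplaced sequence (-0.89), MSTRG.13686.2 on chromosome 26 (-0.83) and MSTRG.24921.1 on an unplaced sequence (-0.83). NONGGAT005850.2, the lncRNA most like MSTRG.14719.6 among those past the filter, had an r of 0.66 with the locus total.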

How the data were processed

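The authors made stranded total RNA libraries and aligned the reads to Galgal4 in TopHat. StringTie assembled the transcripts, Gffcompare classed them against known ones, and short, single-exon or potentially coding transcripts were removed. The deposited table gives raw counts of fragments per transcript, and the authors also gave FPKM, scaled to the length of the transcript and the size of the library. The counting tool is not given in the sources used here. FPKM recomputed from count, length and library total agreed within 0.0537%. Those totals were themselves derived from the counts, lengths and FPKM, so the agreement shows only that a single total per hen links them. Library totals behind the FPKM, computed here, were 5900804 to 7571243 in JH hens and 6982886 to 8662126 in JF hens.

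Counts were tested in edgeR 4.0.16 (R 4.3.3) by the quasi-likelihood F test with TMM normalization and Benjamini-Hochberg adjustment over all lncRNAs tested, namely the 6887 with 0.1 FPKM or more in 7 or more of the 14 hens, or 9868 unfiltered. Standard errors were the absolute log2 fold change over the square root of F. The locus total was tested with its 3 transcripts replaced by their sum. Alternatives were RLE size factors, DESeq2 1.42.0, limma 3.58.1 on log2(FPKM + 0.1) or log2(FPKM + 1), which understates changes of low lncRNAs, covariates, no filter, leaving out each hen, and, chosen after seeing the data, the library totals behind the FPKM. Shares used exact permutation in scipy 1.17.1 (Python 3.11.15, numpy 2.4.6, pandas 2.3.3, matplotlib 3.10.9). In data simulated over the 6887 lncRNAs for JH against JF hens, the test recovered 52 of 100 log2 changes of 2. It recovered 85 of 100 log2 changes of 4, with 6 false positives. Recovery did not require the fold limit of 2. The median fitted size of the changes of 2 was 1.89, so fewer of these would be called by the study's criteria. MSTRG.14719.5 and MSTRG.14719.6, tested without the filter, were not covered by this simulation.

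The lncRNAs named were the locus members, the 5 highest and 3 lowest by Pearson r with MSTRG.14719.6 and with the locus total, and lncRNAs within 100 kb or nearest on each side. The ranking by r was among lncRNAs past the FPKM filter. Members and lists were chosen with earlier results of these data known. No sequence is printed, and no genome of the Galgal4 build was used here.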

Additional observations from a re-analysis of the deposited data

Results flagged for a closer look

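In each of 16 groups (4 values in the long-DF, short-DF, JH and JF hens) the highest and lowest hens were compared with the rest by Dixon's test on FPKM. For normal values it flags about 1 group in 20 by chance. That rate does not hold for MSTRG.14719.5 and MSTRG.14719.6, which were near 0 in most hens. The groups also share hens, and the locus was chosen on MSTRG.14719.6 in the DF groups, so the flags are a description. MSTRG.14719.5 stood apart at 3.47 FPKM in JH68, both among the short-DF hens and among the JH hens, and at 0.120 FPKM, which is 3 fragments, in JH25 among the long-DF hens. MSTRG.14719.6 stood apart at 2.18 FPKM in JH68 among the short-DF hens. The locus total stood apart at 10.6 FPKM in JH14 among the long-DF hens. The causes were not tested.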

How the results depend on the processing

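Of 174 alternatives over 9 tested results, 156 kept the direction and the side of an adjusted p of 0.05. All but NONGGAT005849.2 were above 0.05 to begin with, so staying there says little. Share tests within a DF group could not fall under it. NONGGAT005849.2 stayed under 0.05 in 6 of 21 alternatives. The untested long-DF minus short-DF difference kept its sign in 17 of 18 alternatives for MSTRG.14719.6, not in JF hens alone, and in 10 of 18 for the locus total, whose difference was small beside its SD. For long-DF against short-DF hens 0 lncRNAs were called, DESeq2 called 2 (6 without the FPKM filter), and leaving out a hen gave 0 to 1, the 1 being without JH68. For JH against JF hens 190 were called, limma with a pseudocount of 1 called 22, whose compressed scale leaves fewer changes past the fold limit, and leaving out a hen gave 158 to 201. Leaving out a hen moved the log2 fold change between JH and JF hens within 0.16 (without JH14) to 0.43 (without JF56) for the locus total, within -0.41 to -0.09 for MSTRG.14719.4, within 5.69 to 6.99 for MSTRG.14719.6 and within -0.22 to 2.64 for MSTRG.14719.5, the lowest being without JH68. The JH minus JF difference in share, in percentage points, ranged from 11.0 to 25.02 for MSTRG.14719.6 and from -0.244 to 6.14 for MSTRG.14719.5, which also turned to -0.134 in long-DF hens alone. The long-DF minus short-DF difference ranged from 0.572 to 1.53 FPKM for MSTRG.14719.6 and from -0.925 FPKM (without JH14) to 0.312 FPKM (without JF61) for the locus total. Library totals behind the FPKM moved the median log2 fold change between JH and JF hens over all lncRNAs to 0.14 and that of the locus total to 0.39. No paired analysis was possible because long-DF and short-DF hens share no number and JH and JF hens share only 1. Depth limits MSTRG.14719.6 and MSTRG.14719.5, which had at most 3 fragments in most hens, and the assignment of fragments among transcripts sharing 3257 nt could not be checked without reads.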

Other observations

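Other assembled loci were searched for divisions like that of MSTRG.14719.6, by a rule chosen after seeing the data. Of 384 loci with at least 2 lncRNA transcripts, 70 had at least 50 fragments in every hen. In 23 of these, or 32.9%, at least 1 transcript held 25% or more of the locus in at least 1 hen and at most 1% in at least 7 hens. MSTRG.14719.6, with 97.6% in JH95, was among the 32 such transcripts, as were MSTRG.12746.2 and MSTRG.27458.2, whose highest share was 100%. Every hen reached 25% for between 2 and 7 of the 32 transcripts. JH14 did so for 4, JH95 for 2 and JH68 for 5, so these hens did not hold more of them than the others. MSTRG.30430.2, at 42.1%, 34.7% and 31.0% of its locus in JH14, JH95 and JH68, was not searched, because its locus had 49 fragments in JH95, 42 in JH68 and 43 in JH49.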
